A study of Rattus with 6 samples.

Results

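The genes described here are 10 genes of the interleukin-6 (IL-6) cytokine family, the colony-stimulating factors and their signalling chain. They are the ligands Il6, Il11, Lif, Csf1 and Csf3, the receptor chains Il6st and Osmr, the transcription factor Stat3 and the feedback inhibitors Socs1 and Socs3. They were chosen by symbol, and all 10 were found among the 21378 genes of the count table. All 10 also passed the filter on low counts, which left 14412 genes tested. The libraries came from rat cardiac fibroblasts in culture, cells that make the heart's matrix, which the labels describe as a purchased line. The series asks how the transcriptome differs with less NONO, a nuclear RNA- and DNA-binding protein with roles in splicing and transcription. In the siNONO group (3 libraries) the cells received an siRNA against Nono by lipofection. The siCtrl group (3 libraries) is titled as a control siRNA, while another label names an empty vector instead, and the labels do not settle which was used. The labels give a harvest at 48 h for RT-qPCR and western blotting and no separate time for sequencing.

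IL-6, IL-11 and leukaemia inhibitory factor (LIF) each bind a different receptor chain and share the signalling chain gp130, which Il6st encodes. The oncostatin M receptor chain, encoded by Osmr, also pairs with gp130. The engaged receptor activates Janus kinases, which phosphorylate STAT3, and STAT3 induces Socs3, whose protein binds gp130 and shuts the signal down. The colony-stimulating factors use other receptors: CSF1 supports macrophages through CSF1R, and CSF3, also called G-CSF, supports neutrophils through CSF3R. Fibroblasts are a known source of IL-6, IL-11, LIF and colony-stimulating factors in injured tissue.

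Total counts per library lay between 29692746 and 33365588 in siNONO and between 27792357 and 32869992 in siCtrl. Nono itself had 69.9, 76.1 and 73.6 CPM (read counts brought to a common library size, with TMM factors) in siNONO, against 237, 233 and 247 CPM in siCtrl, so all siNONO libraries lay below all siCtrl libraries. Fibroblast markers summed to between 35030 and 35930 CPM in siNONO and between 36310 and 39040 CPM in siCtrl, with all 12 genes of that list tested. Leukocyte markers summed to between 607 and 657 CPM in siNONO and between 664 and 718 CPM in siCtrl. Of the 12 tested leukocyte markers 5 were lower in siNONO by edgeR (41.7% called, beside 32.1% of all genes tested). The fibroblast list had 5 lowered and 1 raised of 12, so the falls are not read as particular to leukocytes. None of the 14 leukocyte markers analysed was at 0 in every library. Of these, Cd79a had at most 2 counts and S100a9 at most 1 count in any library, both under the filter, and Cd3e and Cd3g were not in the count table. The cultures thus held RNA of macrophage genes such as Cd68 and Mrc1. Endothelial markers summed to at most 41.8 CPM in siNONO and 39.9 CPM in siCtrl, most of it Egfl7 and Tek. Pericyte and smooth muscle markers summed to at most 76.8 CPM in siNONO and 92.3 CPM in siCtrl, most of it Kcnj8 and Abcc9. The cardiomyocyte list summed to at most 116 CPM in siNONO and 159 CPM in siCtrl, nearly all of it Tnnt2. In such bulk samples, fewer cells of a type and less RNA per cell cannot be told apart. The part of these markers in the results below was not tested.

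Of the 10 genes, 4 rose in siNONO (Csf3, Lif, Il6 and Osmr) and 2 fell (Il6st and Stat3) at an adjusted p under 0.05 (edgeR, quasi-likelihood). Over all genes tested 32.1% were called, 16.2% raised and 15.9% lowered, so the background for calls in these libraries is high. The 10 genes were chosen with earlier results of these data known, so their count beside this share is not a test. With scaling by total library size, the split over all genes was 3174 raised to 1673 lowered (65.5% raised), against 2338 to 2292 (50.5% raised) here, and in that fit 4 of the 10 genes were raised and 1 was lowered. The siNONO and siCtrl ranges of CPM did not overlap for 7 of the 10, against 45.0% of all genes tested. The median log2 fold change of the 10 was 0.09, beside 0.00 over all genes. Apart from Csf3, the changes that passed were small, between -0.25 and 0.44 on the log2 scale. Fold changes are siNONO over siCtrl with their standard error (SE), and 95% intervals are those of the single gene. The labels do not say whether replicates came from separate cultures, so p-values measure how these samples spread, which can be technical.

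**Figure D1:**
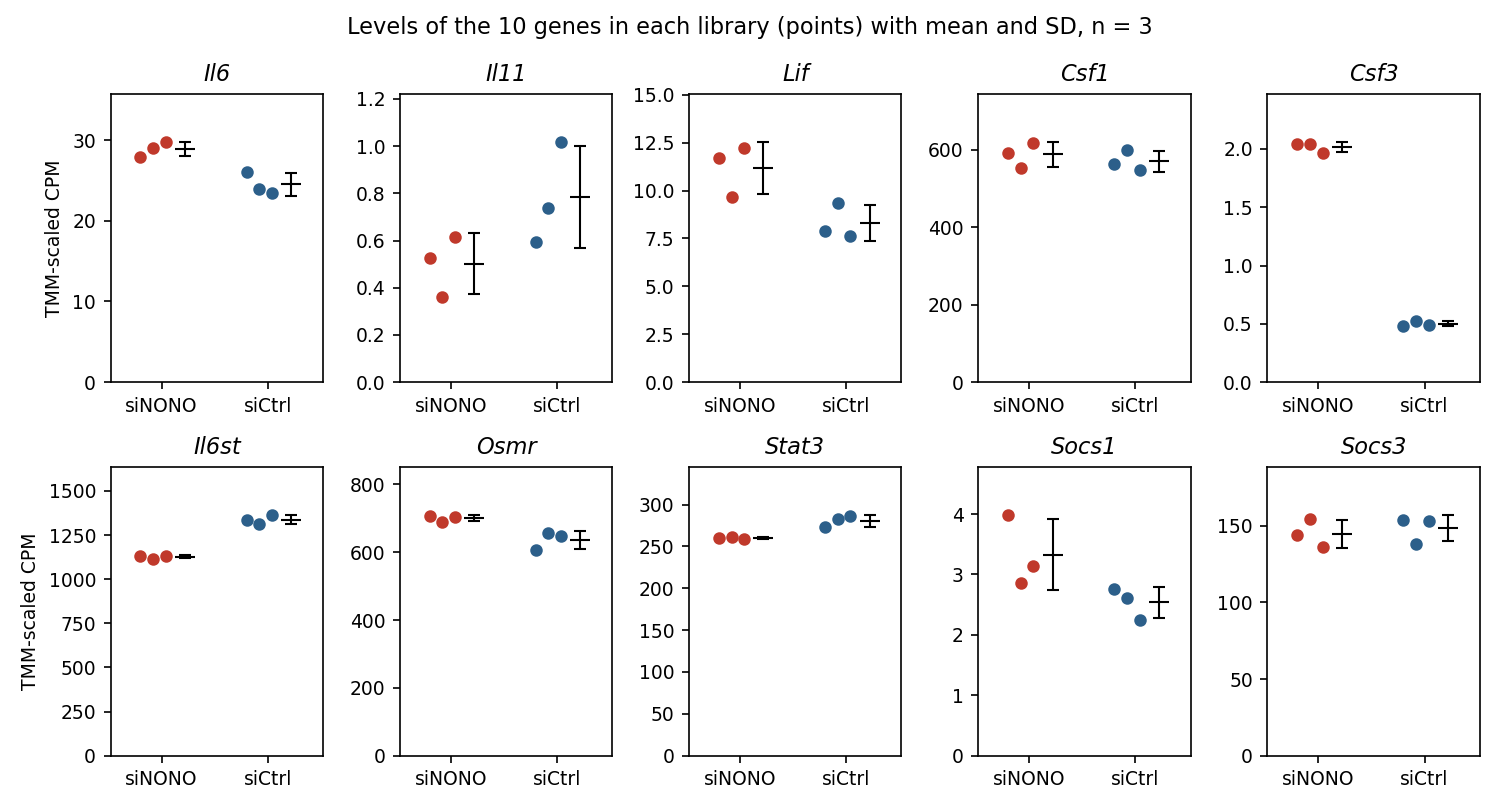
Each panel plots the TMM-scaled CPM of 1 gene in every library (points, siNONO red, siCtrl blue) with the mean and SD of 3 libraries in black, on axes that start at 0. The Csf3 points stand near 2.0 CPM in siNONO and near 0.5 CPM in siCtrl, while those of Csf1, Il11 and Socs3 overlap between groups.

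Among the ligands, Csf3 stood out. It had 62, 68 and 67 counts in siNONO, against 13, 15 and 16 counts in siCtrl. Scaled, these were 2.04, 2.05 and 1.96 CPM in siNONO, against 0.484, 0.528 and 0.494 CPM in siCtrl. The groups lay far apart and each was tight, with means of 2.02 ± 0.0466 CPM in siNONO and 0.502 ± 0.0229 CPM in siCtrl (SD, n = 3 each; exact permutation p = 0.1, two-sided, as small as 3 against 3 allows). The log2 fold change was 2.0 ± 0.21 (edgeR adjusted p = 9.88e-06), that is 3.99-fold with a 95% interval from 2.90 to 5.50. Only 7 of the 14412 tested genes, Csf3 included, rose by as much in the fit. Csf3 nevertheless stayed a rare transcript, and on the log2(FPKM + 1) scale, which understates changes of low genes, its difference was 0.53. Its receptor gene Csf3r had 7, 9 and 6 counts in siNONO, against 6, 8 and 12 counts in siCtrl, and was under the filter.

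Lif, the cytokine that signals through LIFR and gp130, also rose. It had 11.7, 9.66 and 12.2 CPM in siNONO, against 7.89, 9.36 and 7.63 CPM in siCtrl. The lowest siNONO library thus lay just above the highest siCtrl library. The log2 fold change was 0.44 ± 0.11 (edgeR adjusted p = 0.00651), a 1.35-fold difference with an interval from 1.15 to 1.58.

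Il6, the founding ligand of the family, rose by less. It had 27.9, 29.1 and 29.7 CPM in siNONO, against 26.1, 23.9 and 23.5 CPM in siCtrl. All siNONO libraries were above all siCtrl libraries, of which replicate 1 was the highest. The log2 fold change was 0.24 ± 0.06 (edgeR adjusted p = 0.00530), which is 1.18-fold with an interval from 1.09 to 1.29.

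Csf1, the macrophage growth factor and the most abundant of these ligands, did not pass. It had 592, 553 and 618 CPM in siNONO, against 564, 600 and 547 CPM in siCtrl, and the groups overlapped. Its log2 fold change was 0.04 ± 0.05 (edgeR adjusted p = 0.538), and the interval of the fold, from 0.957 to 1.11, bounds the difference within these samples.

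Il11, a gp130 ligand known as a product of activated fibroblasts, was at the edge of detection. It had 16, 12 and 21 counts in siNONO, against 16, 21 and 33 counts in siCtrl. In CPM these were 0.527, 0.361 and 0.615 in siNONO, against 0.596, 0.739 and 1.02 in siCtrl, and the ranges overlapped. The log2 fold change was -0.66 ± 0.31 (edgeR adjusted p = 0.117), with an interval of the fold from 0.401 to 0.998, so the depth leaves its size poorly bounded. Without siCtrl replicate 3 it was -0.41 (adjusted p = 0.419).

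**Figure D2:**
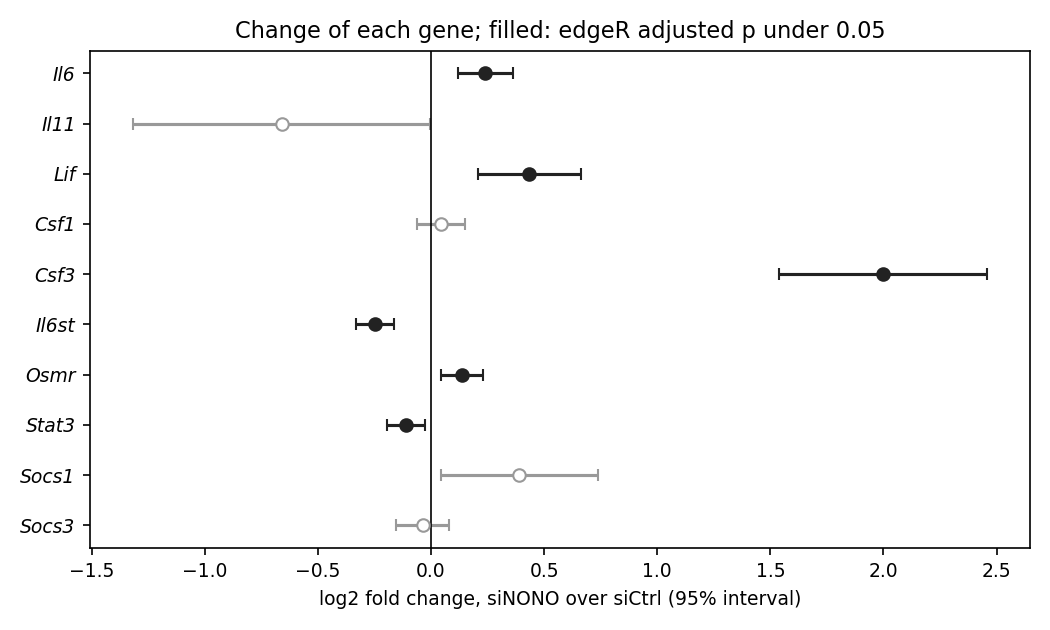
Log2 fold change of each gene, siNONO over siCtrl, with its 95% interval; filled points passed at an edgeR adjusted p under 0.05 and open points did not. Csf3 is at 2.0, while the other genes that passed lie between -0.25 and 0.44 and the low-count genes Il11 and Socs1 have wide intervals.

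The receptor chains moved in opposite directions. Il6st, which encodes gp130, had 1131, 1116 and 1134 CPM in siNONO, against 1333, 1315 and 1363 CPM in siCtrl. Each group was tight and the ranges were well apart. Il6st fell by 0.25 ± 0.04 on the log2 scale (edgeR adjusted p = 0.000305), a fold of 0.843 with an interval from 0.795 to 0.894. Osmr, the chain that pairs with gp130 to bind oncostatin M, had 708, 690 and 704 CPM in siNONO, against 607, 657 and 648 CPM in siCtrl. Its siNONO libraries lay above all siCtrl libraries, of which replicate 1 was the lowest. Osmr rose by 0.14 ± 0.04 on the log2 scale (edgeR adjusted p = 0.0253), or 1.10-fold with an interval from 1.03 to 1.17. The gene no longer passed when siCtrl replicate 1 was left out (adjusted p = 0.0573), nor without siNONO replicate 1 (0.112) or 3 (0.0857).

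A ratio of counts within a library does not depend on how libraries are scaled, and 3 such ratios were computed after the values were seen. For each Il6st count there were 0.626, 0.619 and 0.620 Osmr counts in siNONO, against 0.456, 0.500 and 0.475 in siCtrl. Per 1000 Il6st counts there were 24.7, 26.1 and 26.2 Il6 counts in siNONO, against 19.6, 18.2 and 17.2 in siCtrl. Both ratios were higher in every siNONO library than in any siCtrl library. Exact two-sided permutation tests gave p = 0.1 each, 0.15 after Benjamini-Hochberg adjustment over the 3. The CPM ranges of Osmr, Il6 and Il6st, already apart in these directions, fixed this outcome, so the p-values add no support. The ratio of means was 1.30 for Osmr and 1.40 for Il6. Per 1000 Socs3 counts there were 27.7, 18.5 and 23.1 Socs1 counts in siNONO, against 17.9, 18.8 and 14.7 in siCtrl, and these overlapped (exact permutation p = 0.2).

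**Figure D3:**
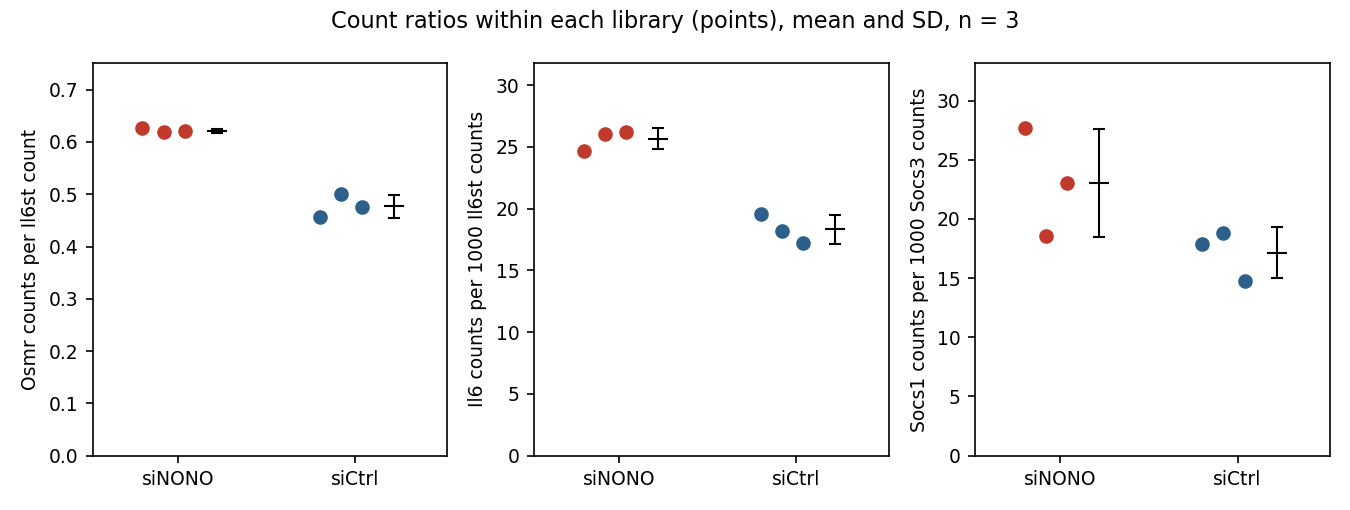
Ratios of read counts of 2 genes within each library (points, siNONO red, siCtrl blue) with the mean and SD of 3 libraries in black, on axes that start at 0. The Osmr to Il6st ratio lies between 0.619 and 0.626 in siNONO and between 0.456 and 0.500 in siCtrl, while the Socs1 to Socs3 ratio overlaps between groups.

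Stat3, the transcription factor downstream of gp130, fell slightly. It had 260, 262 and 258 CPM in siNONO, against 273, 283 and 286 CPM in siCtrl. The ranges did not overlap on this scale. In the deposited FPKM (counts scaled for transcript length and library size) the lowest siCtrl library, at 53.95, lay within the siNONO range from 53.94 to 54.3. The log2 fold change was -0.11 ± 0.04 (edgeR adjusted p = 0.0455), a fold of 0.927. The call was held without siCtrl replicate 1 (adjusted p = 0.0158) and ended without any other library: without siCtrl replicate 2 (0.111) or 3 (0.137), and without siNONO replicate 1 (0.130), 2 (0.0702) or 3 (0.126). Scaling by total library size (0.283) and testing with no filter (0.0922) ended it too.

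Socs1, an inhibitor of Janus kinases known chiefly for damping interferon signals, did not pass. It had 121, 95 and 107 counts in siNONO, against 74, 74 and 73 counts in siCtrl, which gave 3.98, 2.86 and 3.14 CPM in siNONO and 2.76, 2.60 and 2.25 CPM in siCtrl. The lowest siNONO library was barely above the highest siCtrl library, and siNONO replicate 1 stood above the rest. Its log2 fold change was 0.39 ± 0.16 (edgeR adjusted p = 0.0823), with an interval of the fold from 1.03 to 1.67. It passed with no filter (adjusted p = 0.0478), on log2(FPKM + 1) (0.0443) and on log2(FPKM + 0.1) (0.0404), but in 0 of the 6 edgeR fits without 1 library (adjusted p from 0.0528 to 0.329). Without siNONO replicate 1 its log2 fold change was 0.24.

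Socs3, the gp130-bound feedback inhibitor that STAT3 induces, did not pass, and its groups overlapped. It had 144, 154 and 136 CPM in siNONO, against 154, 139 and 153 CPM in siCtrl. The log2 fold change was -0.04 ± 0.05 (edgeR adjusted p = 0.651), with an interval of the fold from 0.899 to 1.06. Its sign flipped with total library size and in 3 other alternatives, always close to 0.

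Compared per transcript length in FPKM, the genes ran from abundant receptor chains to barely detected ligands. In siNONO the order of mean levels was Osmr (128 FPKM), Il6st (128), Csf1 (117), Stat3 (54.1), Socs3 (46.9), Il6 (25.5), Socs1 (2.58), Lif (1.80), Csf3 (0.687) and Il11 (0.170). In siCtrl it was Il6st (147 FPKM), Osmr (113), Csf1 (109), Stat3 (56.4), Socs3 (46.4), Il6 (20.9), Socs1 (1.90), Lif (1.29), Il11 (0.253) and Csf3 (0.167). Neighbours in the order were separated in every library of the group, except Osmr and Il6st in siNONO and Osmr and Csf1 in siCtrl. The order of Osmr and Il6st was thus clear in siCtrl alone, and Csf3 and Il11 changed places at the bottom. The receptor chains and Stat3 stood well above the gp130 ligands Il6, Lif and Il11 in both groups.

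**Figure D4:**
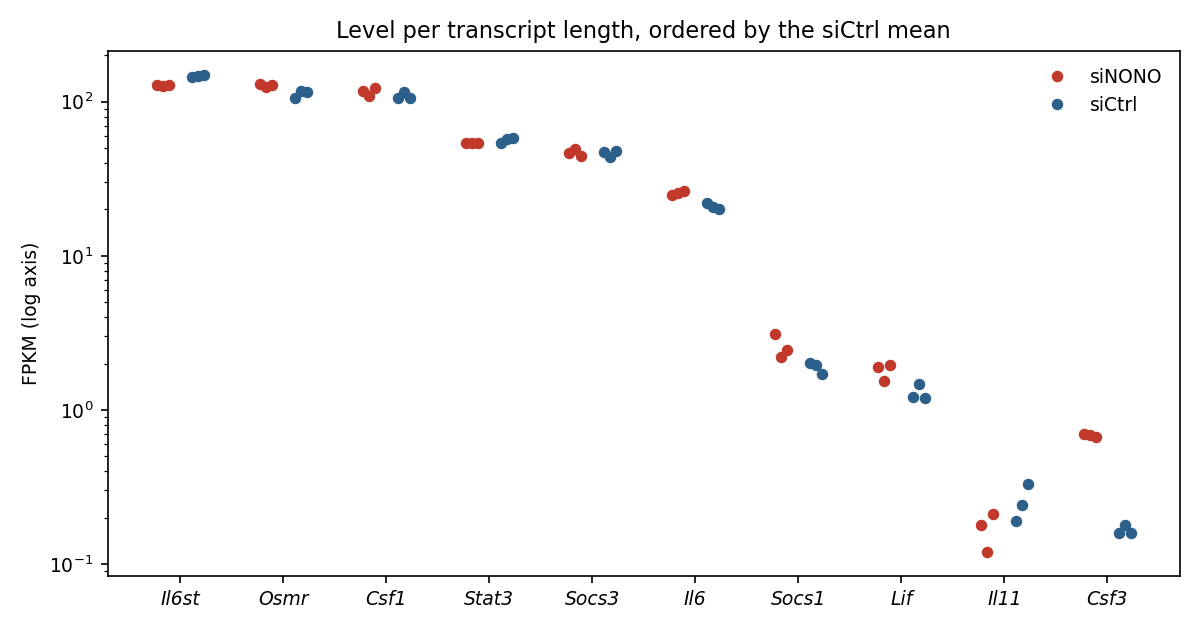
FPKM of the 10 genes in each library on a log axis, siNONO (red) left of siCtrl (blue), ordered by the siCtrl mean. Levels run from 147 FPKM for Il6st to 0.167 FPKM for Csf3 in siCtrl, and only Csf3 shows a gap between groups that is wide on this scale.

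A further 65 genes of the pathway were read from the same fit, in 5 lists of ligands, receptors, kinases with other STATs, inhibitors and genes described as induced through STAT3 or gp130. Of these, 60 were tested, 20 rose and 12 fell, with a median log2 fold change of 0.06. The share called was 53.3%, beside 32.1% over all genes tested. The lists were chosen with earlier results of these data known, so neither this share nor that of any list is a test of the pathway. The 5 genes under the filter were Il27, Csf2, Cntfr, Csf3r and Stat4. Csf2, the third colony-stimulating factor, had 2, 2 and 3 counts in siNONO and 0 in every siCtrl library, where 3 counts (0.0926 to 0.112 CPM per library) are the limit that a count of 0 allows.

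Of the 6 other ligands tested, 1 rose and 1 fell. The share called, 33.3%, was near the 32.1% of all genes tested, so the count is not a result about ligands. Il34, the second ligand of the CSF1 receptor, had 10.4, 12.01 and 10.4 CPM in siNONO, against 7.52, 7.92 and 8.03 CPM in siCtrl. The groups were apart, and Il34 rose by 0.48 ± 0.09 on the log2 scale (edgeR adjusted p = 0.000796). Ebi3, a subunit of IL-27, fell by 0.31 ± 0.10 (adjusted p = 0.0309), with 9.41, 10.4 and 10.4 CPM in siNONO and 14.7, 11.3 and 11.5 CPM in siCtrl. Ebi3 did not pass when siCtrl replicate 1 was left out (-0.18; 0.131), nor without siNONO replicate 1 (0.116) or 3 (0.0588). Osm, the ligand of the Osmr chain, averaged 2.87 CPM in siNONO and 3.27 CPM in siCtrl and did not pass (adjusted p = 0.333).

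Of the 8 other receptor chains tested, 3 fell and 0 rose by edgeR (also 0 raised at an unadjusted p under 0.05, with DESeq2 and with limma-voom). The share called, 37.5%, was near the 32.1% of all genes tested, so the count is not a result about receptors. Csf1r, the receptor of CSF1 and IL-34 and a macrophage gene, had 31.2, 29.9 and 28.3 CPM in siNONO, against 38.1, 34.3 and 37.6 CPM in siCtrl (log2 fold change -0.30 ± 0.06; edgeR adjusted p = 0.00106). Csf2rb, named after its values were seen, fell by 0.22 ± 0.04. Both were apart between groups. The leukocyte and the fibroblast marker sums given above were also lower in siNONO, and a link to either was not tested. Il6r, Il11ra1 and Lifr, whose products bind IL-6, IL-11 and LIF, did not pass. Their log2 fold changes were 0.00 ± 0.07 for Il6r, -0.07 ± 0.05 for Il11ra1 and 0.07 ± 0.05 for Lifr.

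Of the 9 Janus kinases and other STATs tested, 5 rose and 1 fell (66.7% called, beside 32.1% of all genes tested). Stat2 had 246, 237 and 243 CPM in siNONO, against 192, 170 and 143 CPM in siCtrl (log2 fold change 0.53 ± 0.08; edgeR adjusted p = 0.000132). It encodes a factor of interferon signalling, its groups were apart, and siCtrl spread more than siNONO. Replicate 3 was its lowest siCtrl library, and also that of Socs1, Il6, Lif and Csf1, but not of the rest of the 10 genes. The match is thus not particular to Socs1. Further rises, named after their values were seen, were Stat6 (0.44 ± 0.05), Tyk2 (0.35 ± 0.06) and Jak2 (0.19 ± 0.05). Jak1, a main kinase of gp130, was at 248 CPM in both groups. Jak3, a kinase used mainly by blood cells, fell by 0.15 ± 0.05 (adjusted p = 0.0453). The call ended without any 1 of the 6 libraries (adjusted p from 0.0533 to 0.1498). It also ended with total library size (0.191), the DESeq2 Wald test (0.114) and limma-voom (0.0522), and was kept in 3 of 18 alternatives.

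Of the 13 other inhibitors, 5 rose and 2 fell (54% called, beside 32.1% of all genes tested). Cish, a relative of the SOCS proteins, had 21.6, 24.4 and 20.8 CPM in siNONO, against 17.2, 16.6 and 17.9 CPM in siCtrl (log2 fold change 0.37 ± 0.07; edgeR adjusted p = 0.00109). Socs5 had 131, 130 and 132 CPM in siNONO, against 104, 106 and 107 CPM in siCtrl (0.31 ± 0.04; adjusted p = 4.59e-05). Both were clearly apart between groups, unlike Socs3. Pias2 (-0.27 ± 0.04) and Pias4 (-0.23 ± 0.05), SUMO ligases known to restrain STATs, fell. The raised count was 2 with the DESeq2 Wald test, with a replicate block and at a threshold of 0.01. It was 2 without siCtrl replicate 1 or siNONO replicate 3, and 3 without siCtrl replicate 3 or siNONO replicate 1. With total library size it was 7, the highest of the alternatives.

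The 24 genes described as induced through STAT3 or gp130 moved both ways, with 9 raised and 5 lowered and a median of 0.13. The share called was 58.3%, beside 32.1% of all genes tested. The kinase gene Pim1 had 15.4, 16.2 and 17.3 CPM in siNONO, against 9.79, 9.11 and 10.5 CPM in siCtrl (log2 fold change 0.73 ± 0.08; edgeR adjusted p = 1.01e-05). The transcription factor gene Klf4 had 181, 173 and 182 CPM in siNONO, against 121, 123 and 119 CPM in siCtrl (0.56 ± 0.04; adjusted p = 3.34e-07). These were the largest rises of the list. Serpina3n, an acute-phase protease inhibitor, had 166, 185 and 156 CPM in siNONO, against 315, 276 and 310 CPM in siCtrl (-0.83 ± 0.06; adjusted p = 4.74e-07). Vegfa, the endothelial growth factor, had 287, 273 and 269 CPM in siNONO, against 325, 407 and 403 CPM in siCtrl (-0.45 ± 0.07; adjusted p = 0.000201). They were the largest falls, and the groups of all 4 genes were apart.

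**Figure D5:**
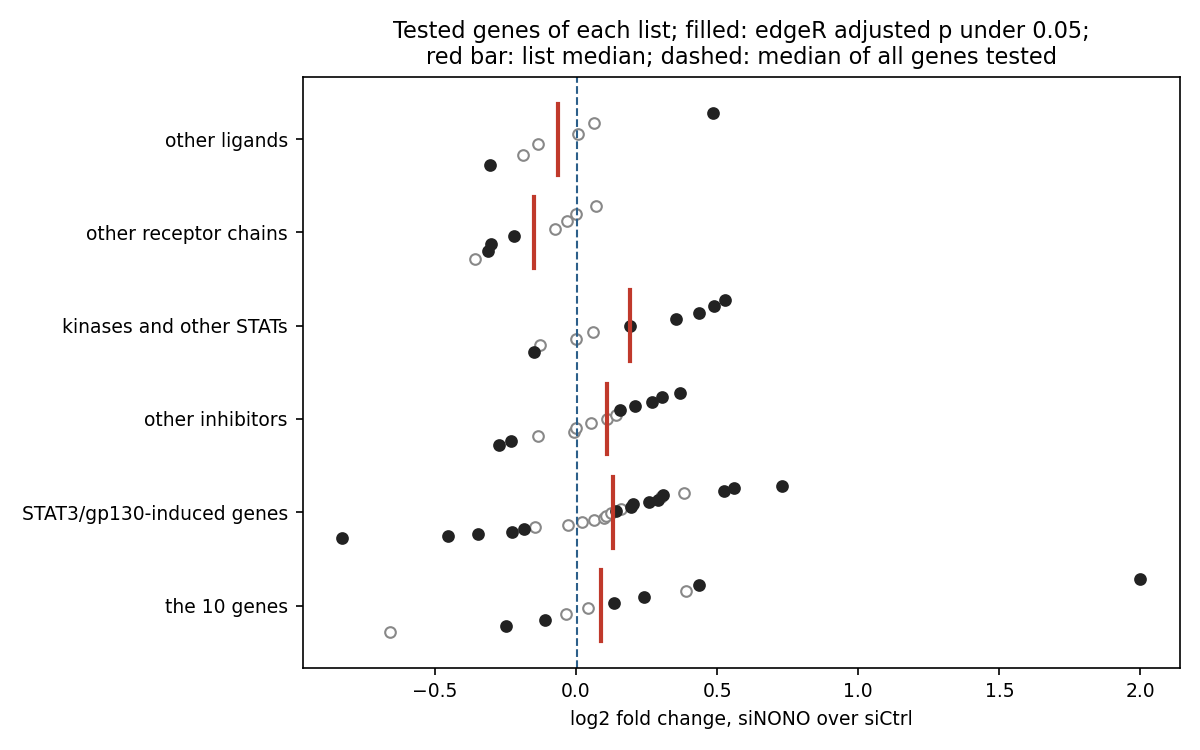
Log2 fold changes of the tested genes of each list, siNONO over siCtrl; filled points passed at an edgeR adjusted p under 0.05, red bars are list medians and the dashed line is the median of all genes tested. The lists were not tested against each other; Pim1 at 0.73 and Serpina3n at -0.83 are the outermost points outside the 10 genes.

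The genes next to these 10 on the chromosomes were read from the order of protein-coding genes in RefSeq's annotation of assembly GRCr8, which is not the build of the files and was used for order only. Of the 20 flanking positions 15 held a different tested gene each, of which 5 rose and 1 fell. That is 40.0% called, beside 32.1% of all genes tested, and is not read as particular to these loci. Beside Csf3 on chromosome 10, the proteasome gene Psmd3 rose by 0.24 ± 0.04 on the log2 scale (edgeR adjusted p = 0.000362), and Med24 on the other side had -0.07 ± 0.05. Neither came near the 2.0 of Csf3. Lif on chromosome 14 lies beside Osm, which had -0.19 ± 0.14 and did not pass. Osmr on chromosome 2 lies between Rictor, which rose by 0.19 ± 0.07, and Lifr, which did not pass. Beside Il6st, on the same chromosome, Il31ra, which encodes a chain that pairs with the Osmr product, had 0.39 ± 0.27 at a mean of 0.905 CPM in siNONO and 0.685 CPM in siCtrl and did not pass. The largest changes at flanking genes that passed were those of Ahcyl1 beside Csf1 (-0.55 ± 0.05) and Cavin1 beside Stat3 (0.45 ± 0.06).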

How the data were processed

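Poly(A)-selected RNA from 6 libraries was made into stranded libraries, per the labels' protocols. Build mRatBN7.2, HISAT2 and edgeR are named per the submitters' processing notes; versions, counter and strand setting are not given there, so overlapping and antisense genes are uncertain. The deposited table of raw counts holds whole numbers per gene; the deposited FPKM table (21081 genes) was scaled by the authors for gene length and library size. There were 0 columns of other samples. No gene positions or sequences are printed.

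The count fit used edgeR 4.0.16 in R 4.3.3 (filterByExpr, TMM, glmQLFit, glmQLFTest; common biological coefficient of variation 4.82%), siNONO against siCtrl by title, two-sided, with Benjamini-Hochberg adjustment over all 14412 genes. SE is |log2 fold change| over √F. A count of 0 allows up to 3 counts (counting error only). Replicates were not copies (chi-square over degrees of freedom between 3.18 and 7.58). Alternatives used limma 3.58.1 and DESeq2 1.42.0; the fit was tested on simulated data. Single values had exact permutation tests (scipy 1.17.1).

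The members and lists were chosen with earlier results of these data known. The rule named all 10 genes, Nono, and from each pathway list up to 2 rises and 2 falls, the largest that passed, or the lowest p where none did. Other genes named, such as Csf2rb, Osm, Il6r, Il11ra1, Lifr, Jak1 and the flanking genes, were chosen by role or position or after their values were seen. Of the genes the rule named, 2 are not reported here.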

Additional observations from a re-analysis of the deposited data

How the results depend on the processing

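Csf3, Lif and Il6 were raised and Il6st lowered in all 18 alternatives (other scalings, filters, tests, FPKM scales, a threshold of 0.01, a replicate block and each library left out). Their log2 fold changes ranged from 0.53 to 2.05 for Csf3, 0.29 to 0.53 for Lif, 0.21 to 0.29 for Il6 and -0.26 to -0.20 for Il6st. Osmr kept its call in 13 of 18 and Stat3 in 7 of 18. Of the 10 genes, 1 was lowered, against 2 in the report, with total library size, with no filter, on log2(FPKM + 1), on log2(FPKM + 0.1), at a threshold of 0.01 and with the replicate block, and from 1 to 2 without 1 library. At 0.01, 1428 genes were raised and 1424 lowered overall. Socs3 changed sign with total library size (0.015), on log2(FPKM + 1) (0.013), on log2(FPKM + 0.1) (0.013) and without siNONO replicate 3 (0.0047; the range without 1 library was -0.089 to 0.0047), never passing. The cause was not tested. Il11 gave no value with at least 1 CPM in 3 libraries. Csf3 met that filter only through siNONO (1.96 to 2.05 CPM, against 0.484 to 0.528 CPM in siCtrl). Its call in that alternative therefore adds no support for its rise. Same-numbered libraries did not deviate together (correlations -0.0472, -0.0861 and -0.00683), so the numbers are not taken as pairs. With the replicate block Osmr (adjusted p = 0.0858), Stat3 (0.134), Ebi3 (0.0579) and Jak3 (0.0873) lost their calls, and 3 of the 10 genes were raised. Depth limits Il11, Csf3 and Socs1 most.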
